A study of Mus musculus with 622 samples.

Results

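This section follows 10 genes with a part in the fate of pyruvate, through single cells of the mouse pancreatic islet. The genes were chosen by name and make up 10 of the 44448 genes in the table. They are the 4 pyruvate dehydrogenase kinases Pdk1, Pdk2, Pdk3 and Pdk4, the dehydrogenase subunit gene Pdha1, the lactate dehydrogenase genes Ldha and Ldhb, the monocarboxylate carrier gene Slc16a1, and the mitochondrial pyruvate carrier genes Mpc1 and Mpc2. RNA was measured in 622 single islet cells of wild-type C57BL/6 mice, each captured on a Fluidigm C1 chip, amplified as cDNA and sequenced as its own library. No treatment, age, animal or chip is named for any cell, so the cells counted as 1 sample and no p-value was computed. Levels are in RPKM, reads scaled to the length of the gene and to the mapped reads of the cell, and 1 RPKM was taken as detection.

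Cells were grouped by their own hormone RNA. A minimum of 1000 genes at 1 RPKM left 593 of the 622 cells. Cells in which a single hormone held 90% or more of the summed Ins1, Ins2, Gcg, Sst and Ppy RPKM made 4 classes, with 32 alpha cells (Gcg), 12 delta cells (Sst), 10 Ppy-led cells and 384 beta cells (Ins1 and Ins2). Another 16 cells with Tyrobp at 100 RPKM or more formed a macrophage-like class, whatever their hormones, and 139 cells fell in no class. In the cells of each class, 8 of 8 alpha markers, 5 of 6 delta markers, 13 of 13 macrophage markers and 9 of 9 beta markers were detected in 50% or more of the cells of that name. These lists hold the hormone or Tyrobp that defined the class, whose detection the grouping fixed. Of 5 markers of PP cells only Ppy and Pyy were, so that class is called Ppy-led here. Of the 9 beta markers, 8 also passed that 50% mark in macrophage-like cells, 5 in alpha, 5 in delta and 4 in Ppy-led cells.

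Pyruvate made by glycolysis can enter the mitochondrion or stay in the cytosol. Entry runs through a carrier built of the Mpc1 and Mpc2 proteins, and inside, the pyruvate dehydrogenase complex turns pyruvate into acetyl-CoA unless its E1 alpha subunit, the product of Pdha1, is phosphorylated by one of the kinases. In the cytosol lactate dehydrogenase reduces pyruvate to lactate, which leaves the cell through carriers such as MCT1, the product of Slc16a1. Ldha and Slc16a1 are textbook examples of genes that beta cells keep silent, and Pdk4 is the kinase known for its increase in fasted muscle and liver.

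Recovered depth ran from 2502 to 6107291 reads per cell, with a median of 1125144. The columns of the table fell into 2 sets by number format, 359 at full precision and 263 rounded to 4 decimals, with medians of 814118 and 1606983 reads and of 5754 and 4124 genes at 1 RPKM. The labels do not mention these sets, so values within each set stand beside the main ones. Classes were compared as log2((class mean + 1)/(beta mean + 1)) and called at 2-fold or more, a scale that understates the change of low genes. Spread is that between cells of a class, and intervals on shares of cells are exact Clopper-Pearson 95% intervals that cover counting error only.

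3 of the 10 genes, Pdk4, Ldha and Slc16a1, were at or near 0 in almost every beta cell, and their promoter windows are shown for that reason. Each window covers 250 bases before and 50 bases after a RefSeq transcript start, on the gene's own strand of GRCm38.p6. The start used for Ldha lies inside the span given for that gene below. RefSeq windows were found for all 10 genes, 14 windows in all. Capitals mark the letters ACGTG or their reverse complement CACGT, the core of the hypoxia response element, which overlap on opposite strands where they form CACGTG.
Pdk4, chr6:5496229-5496528, minus strand: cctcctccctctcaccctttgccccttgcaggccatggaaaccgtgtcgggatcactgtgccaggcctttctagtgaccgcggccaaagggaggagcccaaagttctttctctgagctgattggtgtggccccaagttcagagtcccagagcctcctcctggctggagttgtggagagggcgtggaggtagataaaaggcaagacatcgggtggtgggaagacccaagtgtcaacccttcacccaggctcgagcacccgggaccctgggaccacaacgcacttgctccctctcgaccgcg
Ldha, chr7:46845554-46845853, plus strand: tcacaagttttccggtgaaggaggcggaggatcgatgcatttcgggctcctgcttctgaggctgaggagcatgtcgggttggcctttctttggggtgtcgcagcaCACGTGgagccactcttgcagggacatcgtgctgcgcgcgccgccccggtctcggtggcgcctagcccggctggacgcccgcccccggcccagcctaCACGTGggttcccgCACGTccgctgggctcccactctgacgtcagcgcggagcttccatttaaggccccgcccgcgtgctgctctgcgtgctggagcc
Slc16a1, chr3:104638414-104638713, plus strand: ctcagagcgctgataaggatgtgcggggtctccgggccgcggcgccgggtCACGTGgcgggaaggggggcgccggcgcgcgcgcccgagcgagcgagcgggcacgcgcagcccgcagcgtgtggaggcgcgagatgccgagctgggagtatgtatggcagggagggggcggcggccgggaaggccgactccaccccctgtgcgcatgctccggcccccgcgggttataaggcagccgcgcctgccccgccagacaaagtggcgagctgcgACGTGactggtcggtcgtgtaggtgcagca
The Ldha window held 5 matches (its second RefSeq window none), the Slc16a1 window 3 and the Pdk4 window none, and 19.6% of the 32851 RefSeq mouse windows held at least 1. On both strands, 16.3% of all windows held the nuclear receptor letters AGGTCA, 3.65% the forkhead letters GTAAACA and 13.6% the TATA-box letters TATAAA. None of these stood in the 3 windows shown. A match is a description of the letters only, and binding was not measured.

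**Figure D1:**
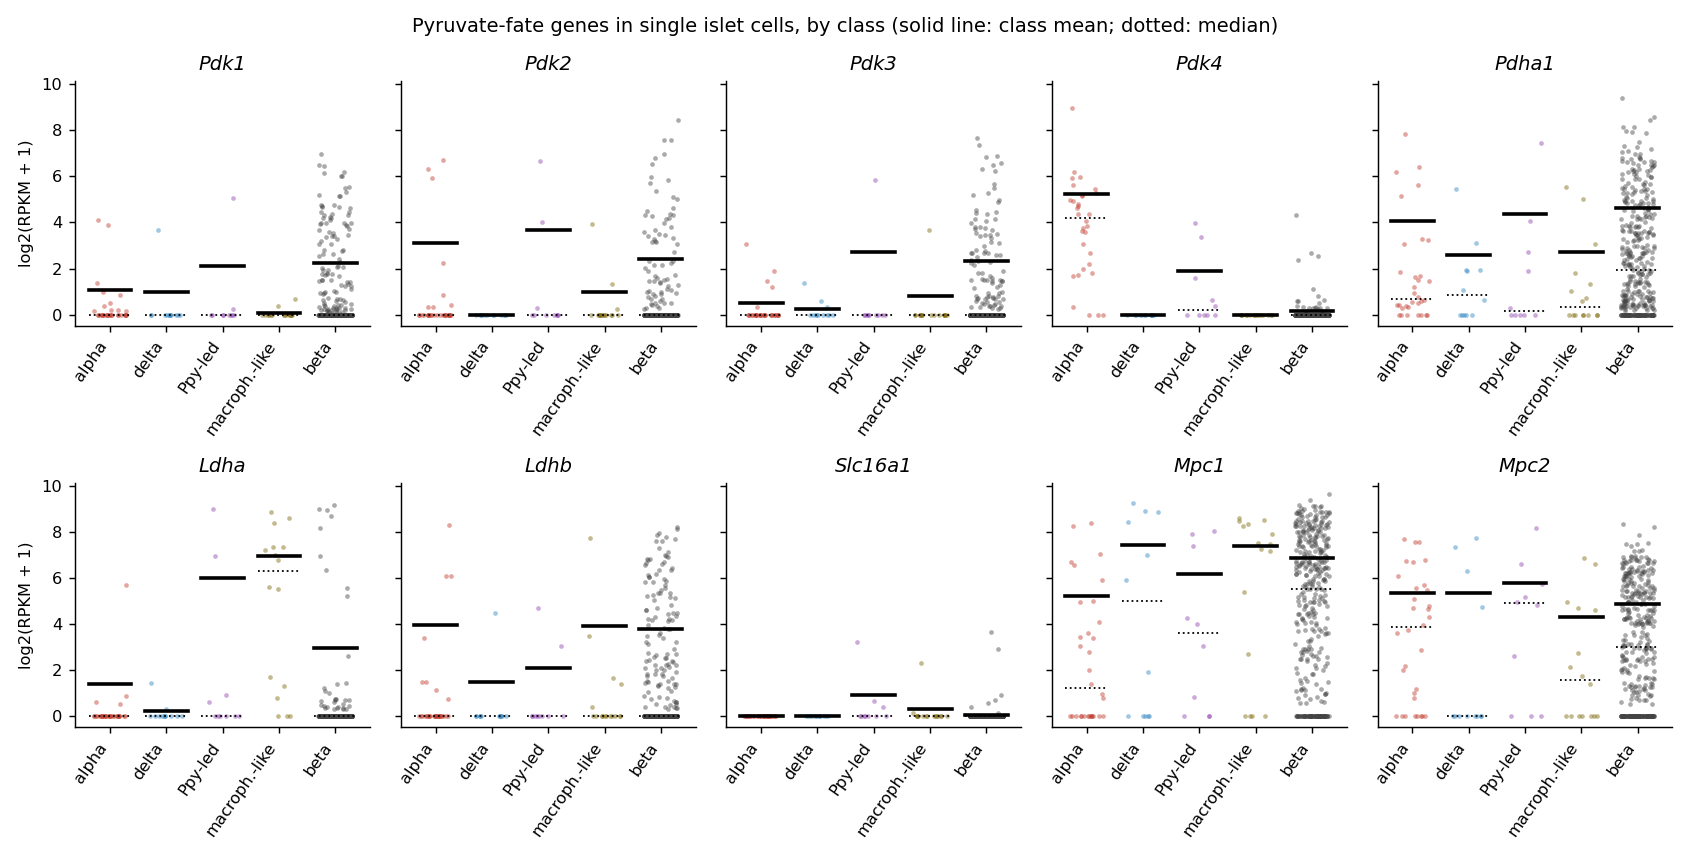
Each point is a cell, with its level as log2(RPKM + 1) on the vertical axis and its class on the horizontal axis. Solid lines mark the class mean and dotted lines the class median. Pdk4 stands out in alpha cells with a median of 17.6 RPKM, Ldha in macrophage-like cells with a median of 77.9 RPKM, and in beta cells both have a median of 0.

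Among the kinases, Pdk4 marked the alpha cells. Pdk4 (Entrez 27273, chr6:5483351-5496278) reached 1 RPKM in 28 of 32 alpha cells, 87.5% (interval 71.0 to 96.5), against 5 of 384 beta cells, 1.30% (0.424 to 3.01). In alpha cells the lowest level was 0, the median 17.6 and the highest 506 RPKM, and in beta cells the median was 0 and the highest 19.1 RPKM. The quartiles of the alpha cells, 3.43 and 34.6 RPKM, lay above those of every other class. The mean was 36.4 RPKM in alpha cells and 0.104 RPKM in beta cells, a log2 ratio of 5.08. That ratio was higher than 99.9% of the genes compared. A single alpha cell held 43.4% of the class sum, and without the highest cell of each class the log2 ratio was 4.40. Mitochondrial genes took a median of 14.6% of the RPKM in alpha and 10.7% in beta cells, and without cells at 25% or more the log2 ratio was 4.30. Full-precision columns gave 5.44 and rounded columns 4.48. At 250000 reads per cell, 87.1% of 31 alpha cells had a Pdk4 read (70.2 to 96.4), against 2.63% of 380 beta cells (1.27 to 4.79). Unthinned, the shares with a read were 90.6% in alpha cells and 5.47% in beta cells.

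The remaining classes held little Pdk4. In Ppy-led cells it reached 1 RPKM in 3 of 10 cells, with values of 1.99, 9.42 and 14.7 RPKM, a median of 0.151 and a mean of 2.69 RPKM. The log2 ratio over beta cells was 1.74, with 1.77 and 1.69 in the full-precision and rounded columns. With class medians it was 0.20. The gene was listed at 0 in all 12 delta cells and in all 16 macrophage-like cells, where the exact intervals reach 26.5% and 20.6% and the limit of 3 counts over the cells is 25.0% and 18.8%. By mean level the order was alpha, Ppy-led and beta cells, and the quartiles of Ppy-led and beta cells overlapped.

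Outside the alpha class, most cells with Pdk4 at 1 RPKM held 10% or more glucagon in their hormone RNA. Passing cells other than macrophage-like ones were sorted by the share of glucagon in their hormone RPKM. Pdk4 reached 1 RPKM in 1 of 174 cells under 0.01% glucagon, 1 of 230 from 0.01 to 0.1%, 5 of 52 from 0.1 to 1%, 3 of 16 from 1 to 10%, 39 of 53 from 10 to 50%, 8 of 20 from 50 to 90% and 28 of 32 at 90% or more. The increase was not steady, with 73.6% of cells (59.7 to 84.7) at 10 to 50% glucagon and 40.0% (19.1 to 63.9) at 50 to 90%, intervals that overlap. The 5 beta cells with Pdk4 carried 0.135 to 6.54% glucagon, with a median of 1.73%, against a median of 0.0143% in the other 379. A further 31 beta cells held at least 0.135% glucagon without reaching 1 RPKM of Pdk4. In cells led by insulin and glucagon together, Pdk4 reached 1 RPKM in 41 of 63, with a mean of 24.0 RPKM, and in cells led by insulin and somatostatin in 0 of 28. Pairs with Ppy gave 4 of 8 with glucagon, 2 of 23 with insulin and 2 of 16 with somatostatin, the highest of the last 2 pairs at 67.4 and 98.8 RPKM. The 2 cells with Pdk4 under 0.1% glucagon were Ppy-led cells. A C1 chamber can hold more than 1 cell, and doublets cannot be told apart from cells with 2 hormones here.

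**Figure D2:**
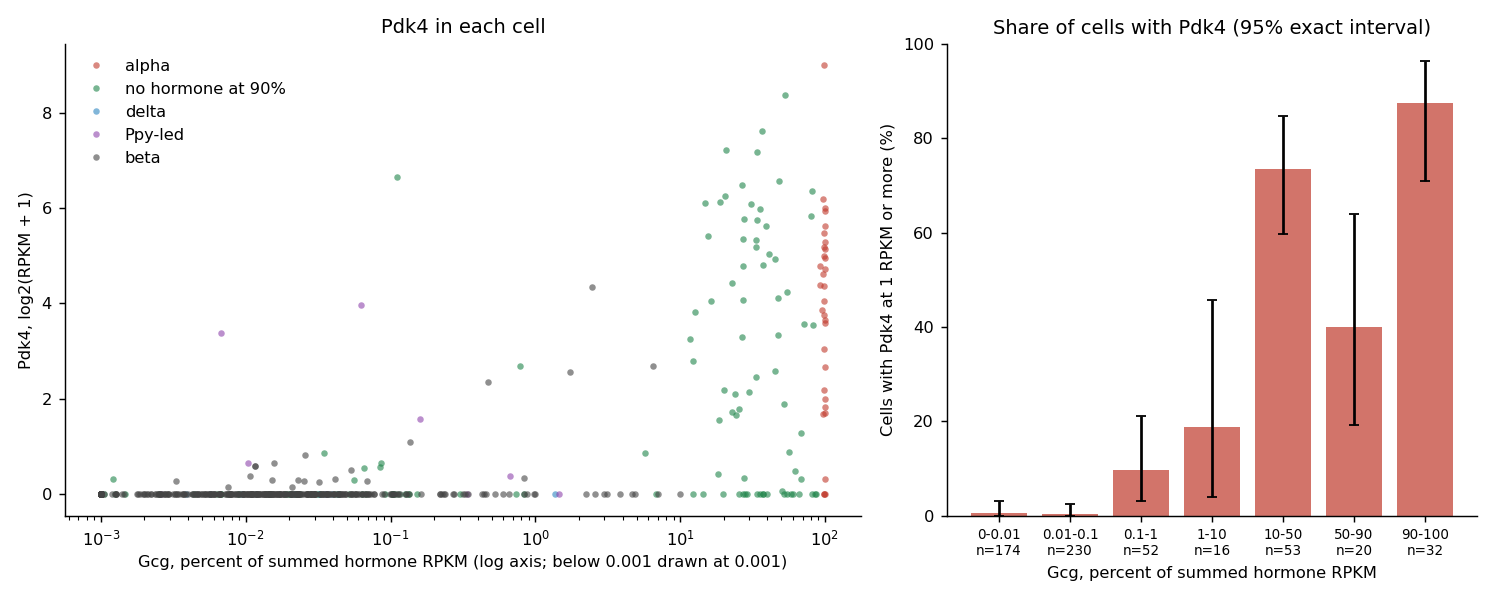
The left panel plots the Pdk4 level of each passing cell outside the macrophage-like class, as log2(RPKM + 1), against the glucagon share of its hormone RPKM on a log axis. The right panel gives the percentage of cells with Pdk4 at 1 RPKM or more in each range of that share, with 95% exact intervals. Cells with Pdk4 gather at glucagon shares of 10% or more, where 39 of 53, 8 of 20 and 28 of 32 cells hold it.

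The 3 other kinases were sparse in every class. Pdk1 (Entrez 228026, chr2:71873215-71903858), a kinase known as a target of the hypoxia factor HIF1, reached 1 RPKM in 3 of 32 alpha, 1 of 12 delta, 1 of 10 Ppy-led, 0 of 16 macrophage-like and 79 of 384 beta cells. Its means were 1.09, 0.974, 3.29, 0.0559 and 3.75 RPKM in that order. It was past 2-fold lower in alpha cells (log2 ratio -1.18), delta cells (-1.27) and macrophage-like cells (-2.17). The median was 0 in all 5 classes, and the quartiles of every class overlapped those of beta cells. In delta cells full-precision columns gave -2.64 and rounded columns -0.01.

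Pdk2 (Entrez 18604, chr11:95026258-95041371), the most widely expressed kinase of the family, reached 1 RPKM in 4 of 32 alpha, 2 of 10 Ppy-led, 2 of 16 macrophage-like and 55 of 384 beta cells, and was listed at 0 in all 12 delta cells. The means were 7.71 RPKM in alpha, 11.8 in Ppy-led, 1.00 in macrophage-like and 4.38 in beta cells. The macrophage-like mean was past 2-fold lower than that of beta cells (log2 ratio -1.43, with -1.93 and -1.34 within the column sets), and for delta cells no fold is given. The 2 highest alpha cells stood at 103 and 78.7 RPKM. One Ppy-led cell at 102 RPKM held 86.8% of its class sum, and without the highest cell of each class the log2 ratio of Ppy-led over beta cells was -0.72 in place of 1.25. In alpha cells full-precision columns gave 1.69 and rounded columns -2.58, so no direction is given. The RefSeq span of Pdk2 overlaps 2 other genes, and no source states whether reads were counted by strand.

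Pdk3 (Entrez 236900, chrX:93764616-93832150) encodes the kinase known for the highest catalytic activity of the family. It reached 1 RPKM in 4 of 32 alpha, 1 of 12 delta, 1 of 10 Ppy-led, 1 of 16 macrophage-like and 67 of 384 beta cells, and the median was 0 in all of these classes. It was past 2-fold lower in alpha cells (means 0.421 and 4.09 RPKM, log2 ratio -1.84), delta cells (0.198 RPKM, -2.09) and macrophage-like cells (0.738 RPKM, -1.55). These 3 ratios kept their sign in both column sets. The Ppy-led mean of 5.58 RPKM came from a single cell at 55.8 RPKM.

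Taken as sums of class means, kinase RNA was 45.7 RPKM in alpha, 1.17 in delta, 23.3 in Ppy-led and 12.3 in beta cells, and under 2 RPKM in macrophage-like cells. The Ppy-led sum rests on single cells, which held 99.5% of the class sum of Pdk1, 86.8% of Pdk2 and 100% of Pdk3. Without the highest cell for each gene, the Ppy-led means were 0.0194 RPKM for Pdk1, 1.73 for Pdk2, 0 for Pdk3 and 1.36 for Pdk4. Pdk4 made up 79.8% of the alpha sum and 0.842% of the beta sum. At least 1 kinase was detected in 87.5% of alpha cells, 16.7% of delta, 60.0% of Ppy-led, 12.5% of macrophage-like and 40.9% of beta cells. Of the beta cells, 46 held 2 or more kinases at once.

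Pdha1 (Entrez 18597, chrX:160122219-160138430), the target of the kinases, was found in all classes. It reached 1 RPKM in 14 of 32 alpha, 6 of 12 delta, 4 of 10 Ppy-led, 6 of 16 macrophage-like and 231 of 384 beta cells. The medians were 0.621, 0.814, 0.116, 0.260 and 2.81 RPKM in that order, and the highest cells reached 228, 43.3, 175, 45.7 and 685 RPKM. The mean was past 2-fold lower in delta cells, 5.08 against 23.7 RPKM in beta cells (log2 ratio -2.02), and in macrophage-like cells, 5.66 RPKM (-1.89). Both ratios were negative in each column set, and quartiles overlapped those of beta cells. For alpha cells the sets differed in sign, 0.12 and -2.22. At 250000 reads a Pdha1 read was present in 48.4% of alpha cells (30.2 to 66.9) and 61.8% of beta cells (56.7 to 66.7), intervals that overlap. The shares of macrophage-like cells, 43.75% (19.8 to 70.1), and of delta cells, 41.7% (15.2 to 72.3), had intervals that overlapped that of beta cells too. Of all 50-base windows of the longest coding Pdha1 transcript, 16.5% also occur in transcripts of Map3k15, which overlaps it, so part of these reads is uncertain.

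Ldha (Entrez 16828, chr7:46842274-46855627), whose subunit favours the reduction of pyruvate to lactate, was highest in the macrophage-like cells. It reached 1 RPKM in 12 of 16 macrophage-like cells, 75.0% (47.6 to 92.7), against 15 of 384 beta cells, 3.91% (2.20 to 6.36). Levels in macrophage-like cells ran from 0 over a median of 77.9 to 472 RPKM, and in beta cells from 0 over a median of 0 to 568 RPKM. The quartiles of macrophage-like cells, 1.30 and 162 RPKM, lay above those of all other classes. The means were 125 and 6.75 RPKM, a log2 ratio of 4.03, while full-precision columns gave 3.79 and rounded columns 6.53. At 250000 reads, 62.5% of macrophage-like cells (35.4 to 84.8) and 5.00% of beta cells (3.04 to 7.70) had an Ldha read.

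Many macrophage-like cells also carried hormone RNA, with summed hormone levels from 586 to 471277 RPKM. Ldha reached 1 RPKM in all 6 cells under 20000 hormone RPKM, with a mean of 138 RPKM, and in 6 of the 10 others, with a mean of 118 RPKM. The 2 cells nearest the Tyrobp limit, at 156 and 166 RPKM, had macrophage marker sums of 1160 and 429 RPKM against a class median of 14703, and both were at 0 for Ldha. With Tyrobp at 500 or more the log2 ratio of Ldha was 4.22. The highest Tyrobp value outside the class was 18.6 RPKM.

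In beta cells, Ldha came from very few cells. The 9 beta cells at 30 RPKM or more, between 36.1 and 568 RPKM, held 99.2% of the Ldha sum of the class, and the other 375 averaged 0.0541 RPKM. All 9 were in the full-precision columns. Stellate markers summed to 100 RPKM or more in 5 of the 9, ductal markers in 4 and glial markers in 2, against 1, 43 and 2 of the 369 beta cells with Ldha under 1 RPKM. Their hormone RNA had a median of 131122 RPKM, against 366783 RPKM in the cells under 1 RPKM. 2 of the 9, at 415 and 46.8 RPKM of Ldha, had every one of these marker sums under 100 RPKM. Without cells that held markers of other cell types, the log2 ratio of macrophage-like over beta cells was 4.39. The part of these other cell types in the beta level was not tested.

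The Ppy-led cells had an Ldha mean of 64.1 RPKM, a log2 ratio of 3.07 over beta cells, and both cells that carried it held markers of other cell types. The cell at 517 RPKM had 1443 RPKM of stellate and 2017 RPKM of glial markers, and the cell at 122 RPKM had 5285 RPKM of stellate and 13842 RPKM of ductal markers. In the other 8 Ppy-led cells Ldha was at most 0.902 RPKM. Without cells that held such markers the log2 ratio was -2.32, so no direction is given for Ppy-led cells. In alpha cells 1 of 32 reached 1 RPKM, at 51.6 RPKM, and that cell held 1404 RPKM of endothelial markers. In delta cells 1 of 12 did, at 1.72 RPKM. Means were 1.67 RPKM in alpha and 0.163 RPKM in delta cells, past 2-fold lower than in beta cells (log2 ratios -1.54 and -2.74), ratios that rest on the 9 beta cells above. In the rounded columns, which held none of these 9, they were -0.08 and 0.27.

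Outside the classes, 3 passing cells with under 2000 hormone RPKM gave values for other pancreatic cells. A cell rich in acinar markers had 81.0 RPKM of Ldha, one rich in ductal markers 66.9 RPKM and one rich in stellate markers 770 RPKM. The last also had 5.94 RPKM of Slc16a1 and 5.47 RPKM of Pdk4. With 1 cell of each kind these values carry no spread.

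**Figure D3:**
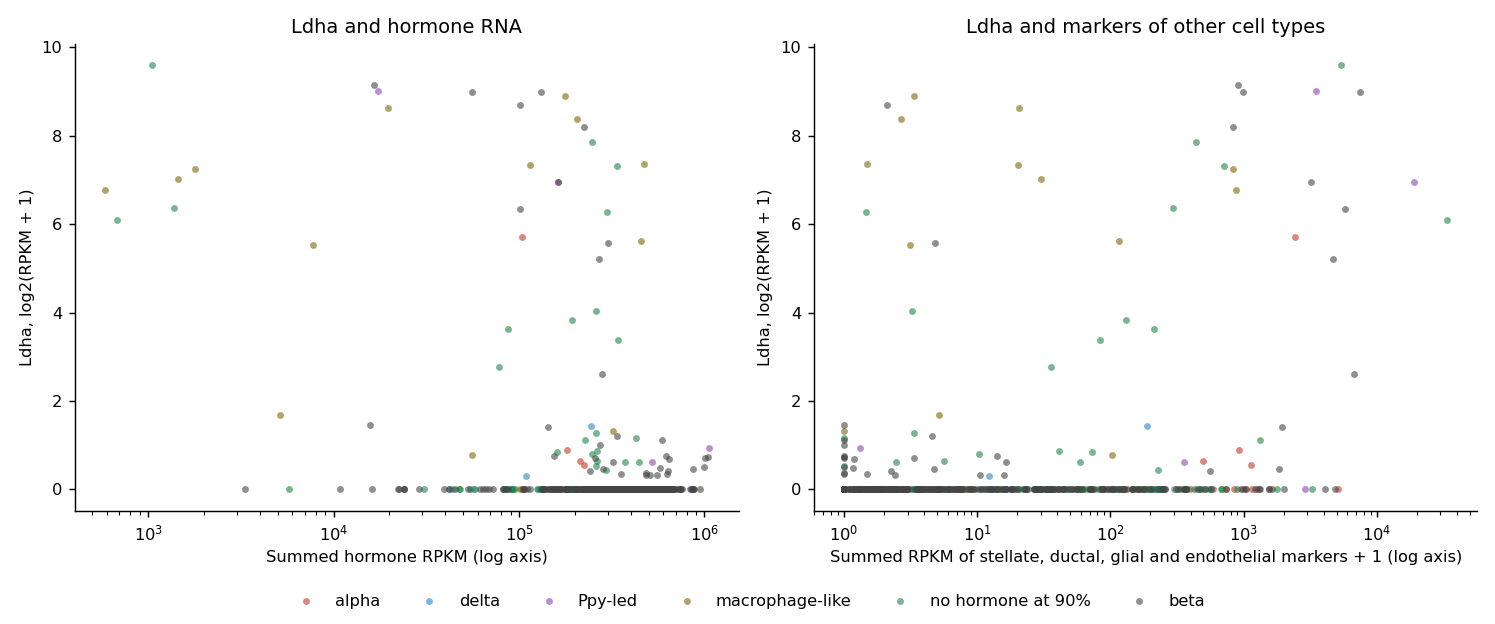
Ldha of each passing cell, as log2(RPKM + 1), is plotted against its summed hormone RPKM on the left and against its summed stellate, ductal, glial and endothelial marker RPKM on the right, both on log axes. Macrophage-like cells with Ldha lie from 586 to 471277 hormone RPKM, while of the 9 beta cells at 30 RPKM or more, 7 have markers of other cell types at 100 RPKM or more.

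Ldhb (Entrez 16832, chr6:142490249-142507957), whose subunit favours the oxidation of lactate, showed no class pattern of this kind. It reached 1 RPKM in 7 of 32 alpha, 1 of 12 delta, 2 of 10 Ppy-led, 4 of 16 macrophage-like and 108 of 384 beta cells. Means were 14.4, 1.79, 3.22, 14.0 and 13.0 RPKM, with a median of 0 in each class. It was past 2-fold lower in delta cells (log2 ratio -2.33) and Ppy-led cells (-1.73), in both column sets, on 1 and 2 detected cells. Ldha made up 89.9% of the summed Ldha and Ldhb means in macrophage-like cells and 34.1% in beta cells. The beta share rests on the 9 beta cells at 30 RPKM or more of Ldha, since the other 375 averaged 0.0541 RPKM. In macrophage-like cells a single cell held 93.6% of the Ldhb sum. Neither was detected in 268 of 384 beta cells, 69.8%. Of the 50-base windows of the longest coding Ldhb transcript, 27.0% also occur in the transcript of Gm5514, and 16.6% of those of Ldha occur in transcripts of 14 other genes, so low counts may be shared with copies.

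Slc16a1 (Entrez 20501, chr3:104638664-104658462) averaged under 1 RPKM in all 5 classes. It was listed at 0 in all 32 alpha cells, where the exact interval reaches 10.9% and the limit of 3 counts over the cells is 9.38%, and in all 12 delta cells. It reached 1 RPKM in 1 of 10 Ppy-led cells (8.24 RPKM), 1 of 16 macrophage-like cells (3.90 RPKM) and 2 of 384 beta cells (11.7 and 6.51 RPKM). The means of these 3 classes were 0.915, 0.250 and 0.0538 RPKM, so the gene entered no call. The Ppy-led cell with Slc16a1 was the one with 5285 RPKM of stellate markers, and the beta cell at 11.7 RPKM had 1902 RPKM of them and 502 RPKM of Ldha. At 250000 reads 1.05% of beta cells (0.288 to 2.67) had a Slc16a1 read.

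Mpc1 had the highest mean of the 10 genes in delta, Ppy-led, macrophage-like and beta cells, and its mean was past 2-fold lower in alpha cells. Mpc1 (Entrez 55951, chr17:8283787-8297667) reached 1 RPKM in 16 of 32 alpha, 7 of 12 delta, 6 of 10 Ppy-led, 12 of 16 macrophage-like and 296 of 384 beta cells. The medians were 1.32, 30.7, 11.2, 166 and 44.8 RPKM in that order, and the highest cells reached 332, 615, 261, 385 and 807 RPKM. The mean was 36.0 RPKM in alpha and 115 RPKM in beta cells, a log2 ratio of -1.65, with -1.72 and -1.45 in the full-precision and rounded columns. It stayed past 2-fold lower in all 14 alternatives tried. At 250000 reads, 48.4% of alpha cells (30.2 to 66.9) and 74.7% of beta cells (70.1 to 79.0) had an Mpc1 read. At 500000 reads the intervals overlapped, with 53.6% of 28 alpha cells (33.9 to 72.5) and 73.5% of 344 beta cells (68.5 to 78.1). Unthinned, the shares were 56.2% and 79.7%. The quartiles of alpha cells, 0 and 19.4 RPKM, overlapped those of beta cells, 1.69 and 184 RPKM. Delta, Ppy-led and macrophage-like means of 175, 70.5 and 168 RPKM were within 2-fold of beta cells. Of the 50-base windows of the longest coding Mpc1 transcript, 23.2% also occur in the copy Mpc1-ps, which averaged 5.11 RPKM in alpha and 9.31 RPKM in beta cells, and 4930506C21Rik overlaps the gene.

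Mpc2 (Entrez 70456, chr1:165461260-165481218) had means within 2-fold of beta cells in each class when all cells were pooled. It reached 1 RPKM in 23 of 32 alpha, 4 of 12 delta, 7 of 10 Ppy-led, 9 of 16 macrophage-like and 259 of 384 beta cells. Means were 40.4, 40.3, 53.6, 18.95 and 28.4 RPKM. Mpc1 was 47.1% of the summed carrier means in alpha cells and 80.2% in beta cells. Both genes were detected in 15 of 32 alpha cells and 221 of 384 beta cells, and Mpc2 without Mpc1 in 8 alpha cells and 38 beta cells. Mpc1 without Mpc2 was seen in 1 alpha cell and 75 beta cells. The column sets disagreed for Mpc2 in delta cells, with log2 ratios of 1.58 and -4.64, and in Ppy-led cells, with 1.35 and -1.18.

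**Figure D4:**
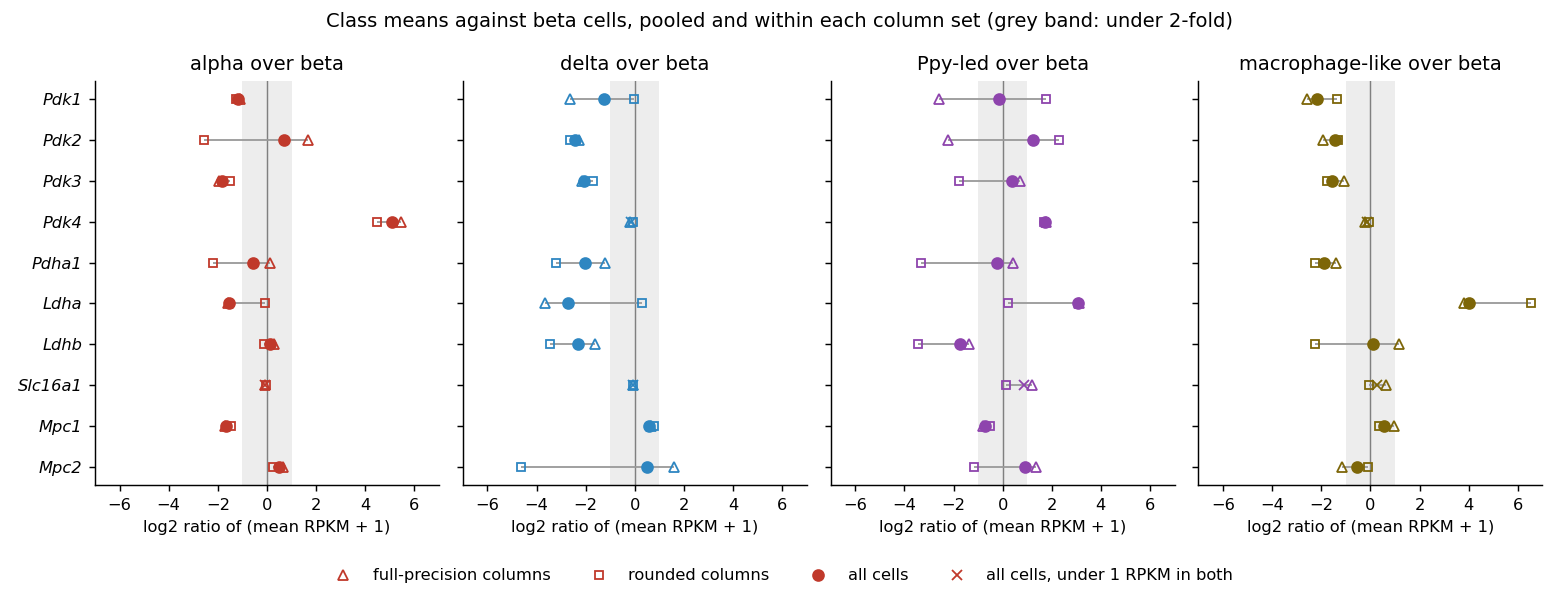
The horizontal axis gives the log2 ratio of (class mean RPKM + 1) over beta cells for each gene and class, with filled points for all cells, open symbols for each column set and crosses where both means were under 1 RPKM. The grey band marks under 2-fold. Pdk4 in alpha cells (5.08) and Ldha in macrophage-like cells (4.03) lie far outside the band in both sets, while Pdk2 in alpha cells, Mpc2 in delta cells and Pdk1, Pdk2, Pdk3, Pdha1 and Mpc2 in Ppy-led cells are among the ratios that change sign between sets.

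Counted over the genes with a class mean of 1 RPKM or more in either class, 1 gene was past 2-fold higher and 4 lower in alpha cells among the 9 of 10 that entered. Of all genes that entered, 10.5% were higher and 22.8% lower, 33.3% in all. In delta cells 0 were higher and 6 lower among 8, against 19% and 32.4% of all genes, 51.4% in all. In Ppy-led cells 3 were higher and 1 lower among 9, against 16.2% and 33.4%, 49.6% in all. In macrophage-like cells 1 was higher and 4 lower among 8, against 19.7% and 28.2%, 47.9% in all. With classes of 10 to 32 cells a call at 2-fold is common for any gene, and these counts by themselves do not set the 10 genes apart. Over all 10 members, with those that did not enter included, the median log2 ratio was -0.32 in alpha and -1.65 in delta cells. It was 0.62 in Ppy-led and -0.35 in macrophage-like cells. The medians of all genes given below cover only genes that entered, so the 2 kinds of median are not alike. Of the 20 ratios past 2-fold, 4 stayed so in every alternative tried, those of Pdk4 and Mpc1 in alpha cells and of Ldha and Pdha1 in macrophage-like cells. The scale of the cell moved the background, as the median log2 ratio of all genes was -0.22 for delta, -0.40 for Ppy-led and -0.16 for macrophage-like cells as deposited, and -0.72, -0.71 and -0.73 when cells were rescaled outside hormone and mitochondrial genes. After that rescaling 14.4% of genes were higher and 44.3% lower in delta cells, and 14.3% and 43.8% in macrophage-like cells. Relative to the median of all genes, Pdk4 in alpha cells was at 5.29 as deposited and 6.93 rescaled, Ldha in macrophage-like cells at 4.18 and 4.71, and Mpc1 in alpha cells at -1.45 and -1.33.

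**Figure D5:**
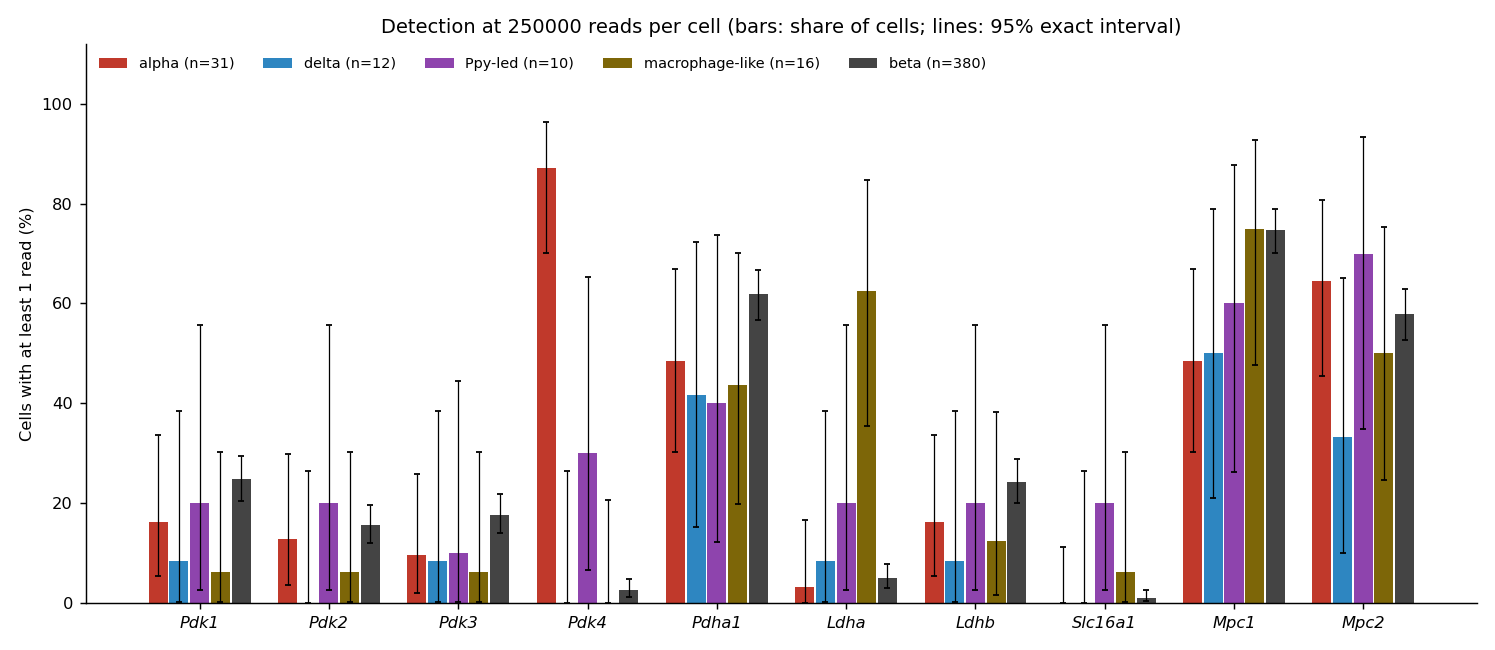
Bars give the percentage of cells of each class with at least 1 read of each gene after thinning to 250000 reads per cell, and lines give 95% exact intervals. The intervals of alpha and beta cells are separate for Pdk4, and those of macrophage-like and beta cells for Ldha. For Mpc1 those of alpha and beta cells are separate here and overlap at 500000 reads.

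Genes whose level followed a member across cells were sought over the 454 cells of the 5 classes, by Pearson r of log2(RPKM + 1) in each column set (257 and 197 cells). These cells share their chemistry, and depth and hormone load differ between them, so r is a description. They were also grouped by hormone share and Tyrobp, with mixed cells left out. The r of a gene high in 1 class with that class's own genes, Gcg among them, thus largely restates the class difference. Pdk4 was most like Higd1a, a hypoxia-inducible mitochondrial protein gene (r = 0.69 full precision, 0.78 rounded), then Gcg itself (0.71 and 0.67) and the potassium channel gene Kcnk3 (0.61 and 0.64). Ldha was most like Lgals1, the galectin-1 gene (0.79 and 0.81), Cyba, a subunit gene of the phagocyte NADPH oxidase (0.80 and 0.79), and Ctsc, the cathepsin C gene (0.80 and 0.74). For Mpc1 the leading genes were its copy Mpc1-ps (0.64 and 0.86), Gm8219 (0.43 and 0.59) and the tetraspanin gene Cd63 (0.34 and 0.36). For Ldhb it was Ldhb-ps (0.56 and 0.85). No gene reached 0.3 in both sets with Pdk1, Pdk2, Pdk3, Pdha1 or Mpc2, and Slc16a1 was detected in too few cells. Within the 384 beta cells, pairs of members were ranked by the lower r of the 2 sets. Mpc1 and Mpc2 then led, with an r of 0.34 (0.24 and 0.34). That of Ldha and Slc16a1 was 0.42, and 0.53 and -0.03 within the sets, with a single cell at 1 RPKM of both.

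The pathway lists around these genes are described by counts and medians only. For genes that supply pyruvate or use it otherwise, in alpha cells 1 of 8 genes of this list that entered was past 2-fold higher and 6 lower, with a median log2 ratio of -1.17 against -0.20 over all genes. Of all genes, 10.5% were higher and 22.8% lower in alpha cells. The pyruvate kinase gene Pkm averaged 51.5 RPKM in alpha and 146 RPKM in beta cells (-1.49), the pyruvate carboxylase gene Pcx 3.87 and 11.7 RPKM (-1.38), and the malic enzyme gene Me1 3.88 and 9.96 RPKM (-1.17). The alanine aminotransferase gene Gpt was the exception, at 6.03 RPKM in alpha and 0.656 RPKM in beta cells (2.09). All 4 had the same sign in both column sets. In delta cells 1 gene of the list was higher and 4 lower of 8, in Ppy-led cells 0 and 5 of 7, and in macrophage-like cells 1 and 4 of 8. The shares of all genes were 19% and 32.4% in delta, 16.2% and 33.4% in Ppy-led, and 19.7% and 28.2% in macrophage-like cells. Pcx and Me1 were past 2-fold lower in these 3 classes too, with log2 ratios over beta cells of -3.64 and -2.79 (Pcx, Me1) in delta, -3.56 and -2.46 in Ppy-led, and -2.35 and -3.33 in macrophage-like cells.

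Of the other genes of the pyruvate dehydrogenase complex and its phosphatases, 0 of 7 were higher and 2 lower in alpha cells (median -0.43), beside 33.3% of all genes past 2-fold either way. The E1 beta gene Pdhb averaged 113 RPKM in alpha and 73.2 RPKM in beta cells (0.62), and the E3 gene Dld 15.05 and 34.1 RPKM (-1.13). In macrophage-like cells 4 of 7 were lower and none higher (median -1.20), Pdhb at 26.2 RPKM (-1.45) and the E2 gene Dlat at 2.77 against 7.65 RPKM (-1.20) among them. In delta cells 1 was higher and 2 lower, and in Ppy-led cells none of the 7 was past 2-fold. Of all genes, 47.9% were past 2-fold either way in macrophage-like, 51.4% in delta and 49.6% in Ppy-led cells. Of the phosphatase genes that undo the kinase step, Pdp1 averaged 11.9 RPKM in delta and 2.39 RPKM in beta cells (1.93, with 2.89 and 0.05 within the column sets).

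For other lactate dehydrogenases and monocarboxylate transporters the counts were 0 higher and 1 lower of 5 in alpha, 2 and 1 of 5 in delta, 1 and 2 of 5 in Ppy-led and 1 and 1 of 6 in macrophage-like cells. Of all genes, 33.3%, 51.4%, 49.6% and 47.9% were past 2-fold either way in these classes, and small lists of this kind are not set apart by their counts. Bsg, the basigin chaperone that carries such transporters to the membrane, averaged 108 RPKM in alpha and 96.8 RPKM in beta cells (0.16). Emb, the related chaperone embigin, averaged 109 and 136 RPKM (-0.32). For the shuttles that pass cytosolic NADH to the mitochondrion, 0 of 8 genes were higher and 2 lower in alpha cells, the carrier gene Slc25a11 at 5.08 against 26.3 RPKM (-2.17) and Mdh1 at 117 against 282 RPKM (-1.26). Delta cells had 1 higher and 3 lower of 9, Ppy-led cells 1 and 3, and macrophage-like cells 1 and 3, where Got1 averaged 102 RPKM against 21.8 RPKM in beta cells (2.17).

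Pdk4 is a known target of the PPAR receptors and of FoxO1. Of 13 genes of fatty acid oxidation and PPAR response that entered, 0 were past 2-fold higher and 4 lower in alpha cells (median -0.12), the carnitine carrier gene Slc25a20 at 0.593 against 6.25 RPKM (-2.19) and Foxo1 at 6.54 against 16.1 RPKM (-1.18) among them. In delta cells 2 of 12 were higher and 3 lower, and in Ppy-led cells 4 of 15 and 3 of 15. Of all genes, 10.5% were higher and 22.8% lower in alpha, 19% and 32.4% in delta, and 16.2% and 33.4% in Ppy-led cells. In macrophage-like cells 6 of 14 were higher and 3 lower (median 0.59), beside 19.7% and 28.2% of all genes. There the lipid droplet gene Plin2 averaged 405 RPKM against 9.23 RPKM in beta cells (5.31), and Angptl4, an inhibitor of lipoprotein lipase, 9.17 against 0.0346 RPKM (3.30).

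HIF1 targets are genes switched on at low oxygen. In alpha cells 1 of 9 was higher and 2 lower (median -0.30), a share equal to the 33.3% of all genes. The single higher gene was Higd1a at 73.7 RPKM against 0.426 RPKM in beta cells (5.71, with 5.52 and 6.01 within the column sets), while the mitophagy receptor gene Bnip3 was at 51.3 against 129 RPKM (-1.31) and Vegfa at 14.4 against 29.95 RPKM (-1.01). In macrophage-like cells 2 of 10 were higher and 2 lower, beside 47.9% of all genes either way. There the carbonic anhydrase gene Car9 was at 24.5 against 0.00589 RPKM (4.67, with 0.17 and 5.32 within the sets) and Vegfa at 8.79 RPKM (-1.66). Delta cells had 2 higher and 3 lower of 9, beside 51.4% of all genes, and Ppy-led cells 2 and 0 of 9, beside 49.6%.

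Of 18 further genes that beta cells are known to keep low beside Ldha and Slc16a1, 8 entered in alpha cells, with 3 higher and 1 lower (median 0.88), and 5 in delta cells, with 2 higher and 1 lower. In macrophage-like cells 10 entered and all 10 were higher (median 3.46), Arhgdib at 282 against 0.937 RPKM (7.19), Maf at 44.6 against 0.0919 RPKM (5.38) and Mgst1 at 60.0 against 0.975 RPKM (4.95) among them. In Ppy-led cells 17 entered and 17 were higher (median 1.90). Such genes mostly entered through the class where they were high, so these counts were nearly fixed in advance. Of all genes, 10.5% were higher in alpha, 19% in delta, 19.7% in macrophage-like and 16.2% in Ppy-led cells. Mgst1 averaged 48.9 RPKM in Ppy-led cells (4.66), with log2 ratios of 4.95 in the full-precision columns, which held both cells with stellate markers, and -0.01 in the rounded columns. In the same order Igfbp4 was at 3.57 and -0.002, Lmo4 at 2.98 and -0.77, and Oat at 3.22 and 3.15.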

How the data were processed

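RNA of 622 single islet cells was read from 1 table of RPKM values that the authors deposited, with Entrez gene IDs in its rows. Per the submitters' processing notes, CASAVA 1.8.2 and FastQC were used and the build was GRCm38/mm10. For aligner, counter, annotation and strand the entry is: not given in the sources used here. Symbols were matched for 39725 of 44448 IDs, and 0 columns belonged to other series. Whole reads were recovered from the RPKM steps for 23126 genes, where 99.9% or more of the values under 100 reads in each column set came out within 0.05 of a whole number. Steps were set on the full-precision columns, so the rounded ones are the check. These reads gave the depth and were thinned to 250000 per cell for detection. The recovery and ratio steps were tested on simulated data. With no animal or chip named, cells counted as 1 sample, so no count model was run and no p-value computed. Ratios used a pseudocount of 1 RPKM, and a gene entered where either class mean reached 1 RPKM. No doublet caller was run, and cells with no hormone at 90% stayed out of the classes. From each pathway list, up to 4 genes with the largest absolute log2 ratio were eligible to be named if either mean reached 5 RPKM, and like genes needed r of at least 0.3 in both column sets. The members and lists were chosen with earlier results of these data known. Shared 50-base windows came from GENCODE transcripts. Python 3.11.15, NumPy 2.4.6, pandas 2.3.3, SciPy 1.17.1 and Matplotlib 3.10.9 were used.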

Additional observations from a re-analysis of the deposited data

How the results depend on the processing

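The counts of members past 2-fold over beta cells were 5 in alpha, 6 in delta, 4 in Ppy-led and 5 in macrophage-like cells. Of all genes, 33.3%, 51.4%, 49.6% and 47.9% were past 2-fold either way in these classes. With a pseudocount of 10 RPKM the member counts were 2 in alpha, 1 in delta, 1 in Ppy-led and 2 in macrophage-like cells. Calls over all genes fell too, to 1.86% higher and 3.37% lower in alpha, and 8.32% and 4.8% in delta cells. They were 5.43% and 5.16% in Ppy-led, and 7.98% and 4.25% in macrophage-like cells. With class medians the member counts were 3 in alpha and 2 in delta cells. Of all genes, 9.19% were then higher and 33.4% lower in alpha, and 15.1% and 37.6% in delta cells. In Ppy-led cells the count was 7 in the full-precision columns, in the rounded columns, at 98% hormone, at 3000 genes, without cells holding markers of other cell types and without the highest cell of each class. Of all genes there, 16.5% were higher and 38.4% lower in full-precision and 15.1% and 55.0% in rounded columns. The shares were 13.4% and 42.9% at 98% hormone, and 17.5% and 31.7% at 3000 genes. Without cells holding such markers they were 11.8% and 51.0%, and without the highest cells 3.21% and 60.3%. The Pdk2 ratio of Ppy-led cells turned to -2.21 with full-precision columns alone and to -0.72 without the highest cell of each class. The Ldha ratio turned to 0.27 in delta cells in the rounded columns, and to -2.32 in Ppy-led cells without cells holding markers of other cell types. The causes were not tested. Over the alternatives the log2 ratio ran from 2.20 to 7.49 for Pdk4 in alpha cells, from -4.30 to -1.37 for Mpc1 in alpha cells, from 3.01 to 6.53 for Ldha in macrophage-like cells and from -2.74 to -1.11 for Pdha1 in macrophage-like cells. Of the 20 called ratios, 6 kept their sign in every alternative. The limits on Tyrobp and hormone in macrophage-like cells were added after seeing the data, and gave counts of 5 at 500 RPKM or more Tyrobp and 6 under 20000 hormone RPKM. Of all genes, 20.3% were higher and 30.7% lower at the first limit, and 22.0% and 44.7% at the second. No paired analysis was possible because no label ties a cell to an animal or chip. Detection is limited by depth and by classes of 10 to 32 cells.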
